A study of Homo sapiens with 18 samples.

Results

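The ZNF zinc finger genes were followed through 2 deposited lists of RNA sites from HEK293T cells, which the submitters name hnRNP C switches and HCS m6A switches. Members were the genes whose listed symbol is ZNF followed by digits and optional capital letters, with no hyphen, so read-through and antisense genes were left out. The rule found 119 such genes among the 4393 gene symbols of both lists. Of these, 53 lie on chromosome 19 and 66 on other chromosomes. Members occur on 20 chromosomes, with 11 on chromosome 7 as the next largest number.

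HEK293T is a transformed human embryonic kidney line. The 18 samples form 9 groups of 2, by their titles. PARCLIP-MeRIP, an hnRNP C crosslinking and immunoprecipitation (PAR-CLIP) followed by m6A enrichment, had an IP and an input group of wild-type cells. PAR-CLIP for hnRNP C alone was done in METTL3 knockdown, METTL14 knockdown and wild-type control cells, and RNA-seq in HNRNPC, METTL3 and METTL14 knockdown and wild-type control cells. The site lists hold no value per sample, so neither occupancy nor RNA abundance in any knockdown was analysed here and samples could not be compared by a test. Whether replicates are separate cultures is not given in the sources used here.

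Most ZNF genes encode proteins with arrays of C2H2 fingers, in which each finger folds around a zinc ion and reads a few bases of DNA. Many carry a KRAB domain that recruits TRIM28 and, through it, the histone methyltransferase SETDB1, and silence transposable elements and other targets. Such genes multiplied by tandem duplication, and large clusters of them lie on chromosome 19. hnRNP C is a nuclear protein that binds runs of uridines in nascent RNA, and N6-methyladenosine (m6A), written by METTL3 with METTL14, can open a nearby structure and expose such a run.

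Each listed site pairs a U-tract, a run of at least 5 uridines, with an RRACH motif, the 5 nt consensus in which m6A is written (R is A or G, H is A, C or U), at a listed distance of at most 50 nt. The list from PARCLIP-MeRIP is called the switch list and the other carries the submitters' name HCS. A site was counted as 1 distinct U-tract, and positions are in hg19. Read depth is unknown, and the intervals of shares are exact binomial 95% intervals that cover counting error only. Sites of 1 gene are not independent of each other, and ZNF paralogs share sequence. How reads that align to several places were treated is not given in the sources used here, so the assignment of a site to 1 of several near-identical copies is uncertain. The 20 genes of blood, liver, muscle, pancreas, kidney and brain that were looked up as a check on the cell type were in neither list, but a list of sites holds no expression levels and cannot check the label.

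The ZNF genes held 248 of the 13378 switch sites and 67 of the 2748 HCS sites. A switch site was found in 102 members and an HCS site in 50, and 33 members had both. The remaining members were 69 with switch sites alone and 17 with HCS sites alone. Of the switch entries without a symbol, some belong to ZNF genes by their transcript. Counting these gave 122 genes, adding ZNF33A, ZNF518A and ZNF891, and gave ZNF512 4 switch sites where its symbol had 0.

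Switch sites were few per gene. The 102 ZNF genes with a switch site averaged 2.43 sites (median 2), against 3.26 (median 2) over all 4075 genes with a switch site, members included. A single site was listed in 49 ZNF genes (48.04%), against 39.1% of all genes, and 5 or more sites in 10 ZNF genes (9.80%), against 20.8% of all genes. Genes are not replicates, and these differences were not tested. The 3 leading ZNF genes held 44 of the sites (17.7%).

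**Figure D1:**
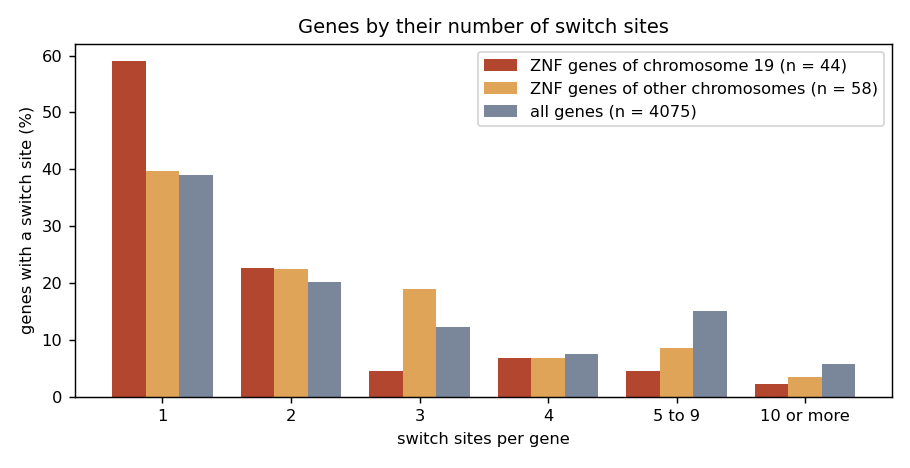
Share of genes with a switch site (vertical axis, percent) by their number of switch sites (horizontal axis), for ZNF genes of chromosome 19, ZNF genes of other chromosomes and all genes. A single site was listed in 59.1% of the chromosome 19 ZNF genes, 39.7% of the other ZNF genes and 39.1% of all genes.

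ZNF638, which encodes a large nuclear protein with RNA-binding domains, held the most switch sites among the members, with 20, and shared the highest number of HCS sites, 4, with ZNF644. Its switch sites were spread over 100703 nt of the plus strand of chromosome 2, from 71560743 to 71661445. The 4 HCS U-tracts were intronic, and their motifs all lay downstream. Those at 71564904 to 71564912, 71584803 to 71584809 and 71608951 to 71608956 were also switch sites, with tracts of 9, 7 and 6 uridines and gaps to the motif of 14, 10 and 28 nt. The HCS U-tract at 71574279 to 71574283, with a gap of 34 nt, was absent from the switch list.

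ZNF346, a protein whose fingers bind double-stranded RNA, held 13 switch sites and 2 HCS sites on the plus strand of chromosome 5. Its HCS U-tracts at 176450415 to 176450419 and 176466786 to 176466790 were intronic and neither was a switch site. ZNF644, a partner of the histone methyltransferases EHMT1 and EHMT2, is on the minus strand of chromosome 1 and had 5 switch sites and 4 HCS sites. All 4 HCS sites were intronic, none was a switch site, and the nearest switch site lay 863 nt away. None of the HCS sites of ZNF346 and ZNF644 and 3 of the 4 of ZNF638 were in both lists, beside 40.1% of all HCS sites. These counts are too small to set the genes apart.

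Among the other leading genes, ZNF143, a transcription activator found at promoters and chromatin loop anchors, held 6 switch sites and 2 HCS sites, with 0 in common. ZNF207, a kinetochore and spindle protein, held 7 switch sites, at 4 distinct motifs, and 1 HCS site. That intronic HCS site, at 30679727 to 30679731 on the plus strand of chromosome 17, was also a switch site. ZNF714, on chromosome 19, held 5 switch sites, and its 1 HCS site was among them. ZNF451, a SUMO ligase, held 5 switch sites and 0 HCS sites.

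ZNF146, which encodes a short protein made almost wholly of zinc fingers, held 11 switch sites within 17116 nt of the plus strand of chromosome 19 and 0 HCS sites. Its switch sites stand for 8 distinct motifs. No other member combined 8 or more switch sites with an empty entry in the HCS list. ZNF431, a KRAB gene of chromosome 19, and ZNF721, on chromosome 4, held 7 switch sites and 0 HCS sites each. All 7 sites of ZNF721 were also listed under the overlapping ABCA11P, so their gene is uncertain.

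**Figure D2:**
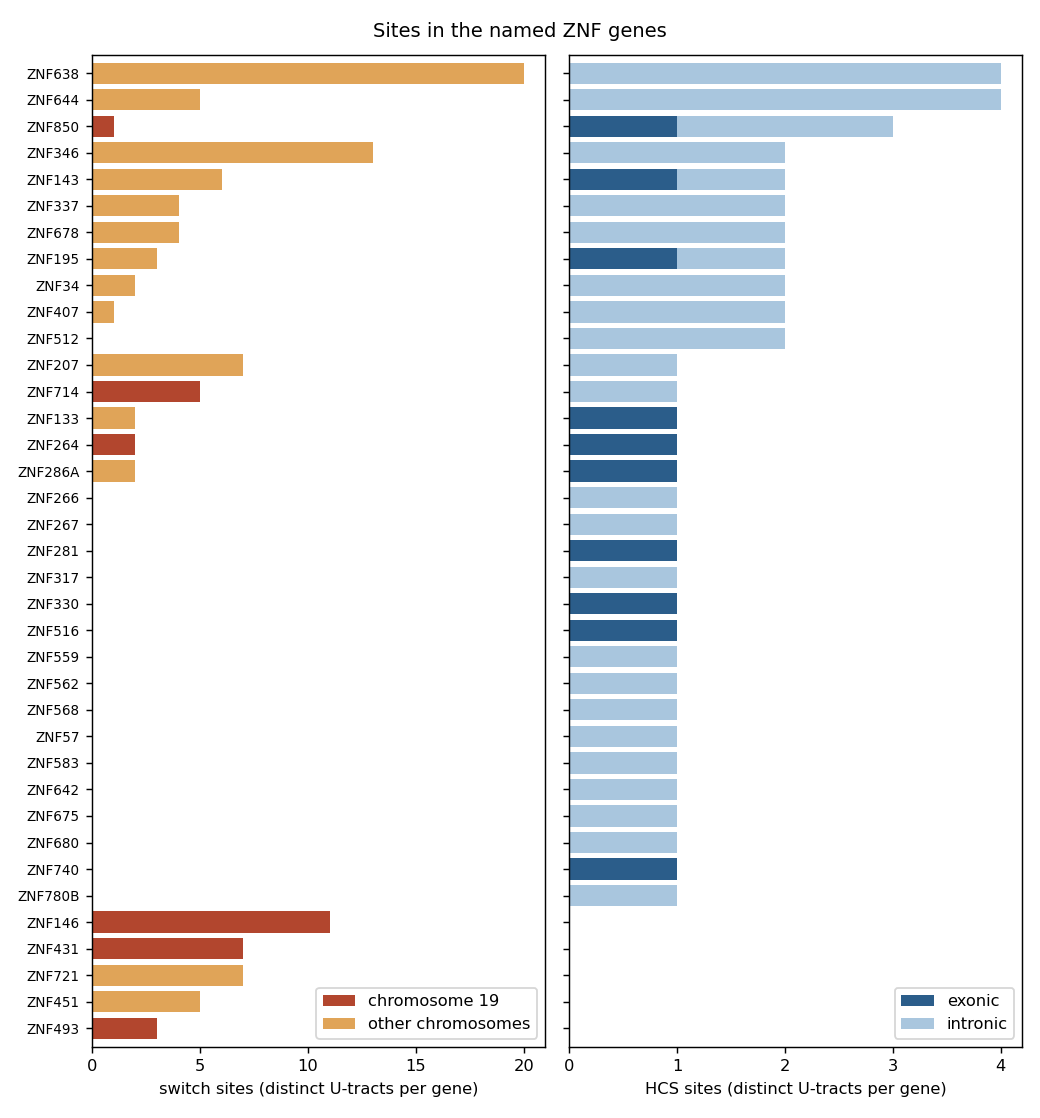
Number of distinct switch U-tracts (left, coloured by chromosome) and of distinct HCS U-tracts (right, split into exonic and intronic) in each ZNF gene named by the rules for leading genes. ZNF638 has the longest bar in the left panel with 20 and shares the longest in the right panel with ZNF644 at 4 HCS sites each, and ZNF512 and the genes with HCS sites alone have no bar on the left.

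HCS sites were mostly single. Of the 50 ZNF genes with an HCS site, 38 had 1, 9 had 2, 1 had 3 and 2 had 4. ZNF850, a KRAB gene of chromosome 19 with 1 switch site, was the gene with 3. Its intronic U-tract at 37249683 to 37249687 on the minus strand was in both lists, whereas its exonic U-tract at 37238801 to 37238805 and its intronic one at 37261307 to 37261311 were in the HCS list alone. ZNF337 and ZNF678 each had 2 intronic HCS sites, and all of these were switch sites. ZNF34 likewise had 2 intronic HCS sites that were both switch sites. These are neighbouring U-tracts that share 1 motif, the one such case among the 66 motifs of the ZNF HCS sites. ZNF195 had an exonic and an intronic HCS site, and both were switch sites. ZNF407 had 2 intronic HCS sites, of which 1 was a switch site.

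An HCS site was present in 33 of the 102 ZNF genes with a switch site (32.4%, interval 23.4% to 42.3%), and the background over all genes with a switch site was 36.7%. The ZNF share lay near the background. It varied with the number of switch sites, with 6 of 49 ZNF genes with 1 site, 12 of 23 with 2 sites and 2 of 3 with 10 or more, against 314 of 1593, 256 of 824 and 195 of 233 over all genes. Because more ZNF genes had a single site, the pooled shares compare genes of unequal site number.

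Of the 67 ZNF HCS sites, 21 were the same U-tract as a switch site (31.3%, interval 20.6% to 43.8%), and the background was 40.1% of all HCS sites. They lay in 14 genes, among them ZNF638 with 3 and ZNF195, ZNF337, ZNF34, ZNF512 and ZNF678 with 2 each. In the other direction, 19 of the 248 ZNF switch sites were HCS sites (7.66%), near the background of 8.24%. The 2 sites that separate these counts are those of ZNF512, whose switch entries carry no symbol. Of the 46 HCS sites outside the switch list, 30 were in genes that hold a switch site under their symbol. None of the 46 had a switch site within 100 nt, and 2 had one within 1000 nt, in ZNF26 and ZNF644.

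HCS sites in genes without a switch site under the same symbol were comparatively common. In 17 of the 50 ZNF genes with an HCS site (34.0%) no switch site stood under the symbol, and the background was 17.5% of all genes with an HCS site. This difference was not tested. With the entries that lack a symbol, ZNF512 left this group. On chromosome 19 the genes were ZNF57, ZNF266, ZNF317, ZNF559, ZNF562, ZNF568, ZNF583, ZNF675 and ZNF780B, each with 1 intronic HCS site. ZNF568 is a KRAB protein whose mouse counterpart silences a placental Igf2 promoter. On other chromosomes they were ZNF267, ZNF281, ZNF330, ZNF512, ZNF516, ZNF642, ZNF680 and ZNF740. The HCS site of ZNF559 was also listed under the read-through gene ZNF559-ZNF177.

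The HCS list gives the region of each U-tract, which the switch list does not. Of the 67 ZNF HCS sites 10 were exonic (14.9%, interval 7.40% to 25.7%), near the background of 17.0%. Each of the 10 lay in a different gene. ZNF133, a KRAB repressor on chromosome 20, had its exonic U-tract at 18285734 to 18285738 on the plus strand, with the motif directly adjoining downstream. ZNF195, a KRAB gene on the minus strand of chromosome 11, had its exonic U-tract at 3379885 to 3379889, with the motif 3 nt upstream. Both were also switch sites.

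The other 8 exonic sites were in the HCS list alone. In ZNF281, a regulator of pluripotency genes, the U-tract lay at 200377770 to 200377774 on the minus strand of chromosome 1, 1412 nt from the transcript start. In ZNF330, a nucleolar protein, it lay at 142155292 to 142155296 on the plus strand of chromosome 4. Both had the motif 3 nt downstream. In ZNF740 an 11 nt U-tract lay at 53582896 to 53582906 on the plus strand of chromosome 12, the longest of the exonic tracts. In ZNF516, which activates thermogenic genes of brown fat, the U-tract lay at 74073649 to 74073653 on the minus strand of chromosome 18 and adjoined its motif.

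In ZNF264 on chromosome 19 the exonic U-tract at 57724244 to 57724248 shared 1 base with its motif. The exonic sites of ZNF143, ZNF286A and ZNF850 had their motifs 13, 19 and 10 nt downstream. Thus 2 of 10 exonic ZNF sites (20.0%, interval 2.52% to 55.6%) and 19 of 57 intronic ZNF sites (33.3%, interval 21.4% to 47.1%) were in the switch list, whereas over all HCS sites it was 271 of 467 exonic (58.0%) and 831 of 2281 intronic (36.4%). With 10 exonic sites the ZNF interval reaches the lower values of the interval over all exonic sites, 53.4% to 62.5%, and the difference was not tested.

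The U-tract was followed by its motif, rather than preceded by it, in 50 of the 67 ZNF HCS sites (74.6%, interval 62.5% to 84.5%), and the background was 56.0% of all HCS sites. The gap between the facing edges had a median of 6 nt in ZNF HCS sites, against 11 nt over all HCS sites. It was at most 10 nt in 43 ZNF HCS sites (64.2%, interval 51.5% to 75.5%), with a background of 48.6%. Because listed distances end at 50 nt, upstream gaps can reach no more than 45 nt, and with that bound on both sides the ZNF share of downstream motifs was 74.2%. The background was not recomputed with that bound. No test was run, and these properties were picked out after the values were seen. The motif was downstream in 15 of the 21 ZNF HCS sites in the switch list (71.4%, interval 47.8% to 88.7%), against 56.7% over all genes. Outside the switch list it was 35 of 46 (76.1%, interval 61.2% to 87.4%), against 55.5%. The median gaps were 8 and 5 nt, against 12 and 10.5 nt over all genes. The interval for the 21 sites includes its background, and both parts come from the same 67 sites.

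The U-tract touched or overlapped its motif in 10 ZNF HCS sites (14.9%), against 9.93% of all HCS sites. In ZNF264, ZNF512 and ZNF714 the last base of an upstream motif was the first base of the U-tract, so that the methylation motif ended in the uridine run. Both lists held the plus-strand sites of ZNF714 (chromosome 19, 21279058 to 21279062) and ZNF512 (chromosome 2, 27808614 to 27808618). The remaining 7, in ZNF26, ZNF133, ZNF143, ZNF266, ZNF317, ZNF516 and ZNF642, adjoined the motif with a gap of 0 nt.

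The switch sites of ZNF genes did not have these properties to the same degree. The motif of ZNF switch sites was downstream in 152 of 248 (61.3%), near the background of 59.7%. Their median gap was 18 nt, against 17 nt over all switch sites. U-tracts of 5 nt made up 64.1% of ZNF switch sites and 63.7% of all switch sites, and those of 8 nt or more 9.27% and 9.88%. The longest member tract was the 32 nt run of ZNF493 at 21603425 to 21603456 on the plus strand of chromosome 19, with a motif 2 nt downstream, followed by the 29 nt run of ZNF143 at 9541572 to 9541600 on the plus strand of chromosome 11. Neither was an HCS site. The longest tract of a ZNF HCS site was 14 nt, in ZNF100.

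**Figure D3:**
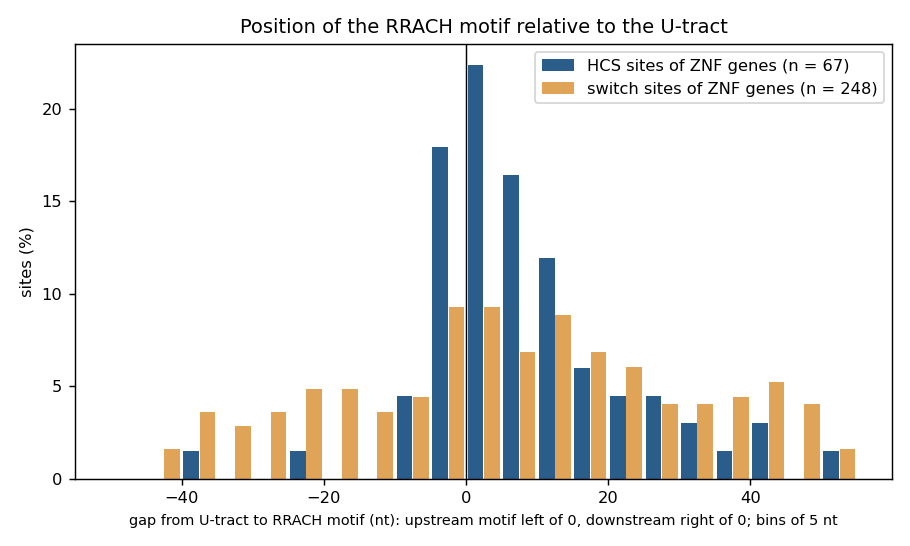
Share of sites (vertical axis, percent) by the gap between U-tract and RRACH motif in bins of 5 nt (horizontal axis, upstream motifs left of 0, downstream motifs right of 0), for HCS sites and switch sites of ZNF genes. An overlap by 1 base is drawn in the bin next to 0. The HCS bars crowd around 0, with a median gap of 6 nt, and the switch bars spread wider, with a median of 18 nt.

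Some gaps recur across the whole switch list, such as downstream gaps of 40 and 48 nt. Of the ZNF switch sites 11 had one of these gaps (4.44%, interval 2.23% to 7.80%), near the background of 4.72%. They lay in 9 genes, 7 sites on chromosome 19 (8.05% of the 87 there, interval 3.30% to 15.9%) and 4 on other chromosomes (2.48% of 161, interval 0.681% to 6.24%). In ZNF227 and ZNF37BP a pair of U-tracts at 48 and 40 nt shared 1 motif. Of the ZNF HCS sites 0 of 67 had such a gap, where 3 counts would be a share of 4.48% and the exact binomial interval reaches 5.36%, against 1.38% of all HCS sites.

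Several U-tracts often shared a motif. Of the 201 RRACH motifs of ZNF switch sites 44 were listed with more than 1 U-tract (21.9%), against 15.3% of all switch motifs. In ZNF747, on the minus strand of chromosome 16, 4 U-tracts within 27 nt shared 1 motif, so that its 4 switch sites stand for 1 motif. In ZNF655, on chromosome 7, 3 U-tracts shared 1 motif, which lay downstream of 1 and upstream of 2. Another switch site lay within 100 nt of 95 ZNF switch sites (38.3%, interval 32.2% to 44.7%), against 30.8% of all switch sites.

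Measured along the unspliced transcript, ZNF switch sites had a median position of 14283 nt from the transcript start, against 21219 nt over all switch sites. ZNF HCS sites had a median of 14029 nt, against 23406 nt over all HCS sites. The range of ZNF switch sites ran from 383 nt, in ZNF587B, to 106754 nt. Transcript lengths in hg19 were not used here, so whether these differences come from gene length was not tested.

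The 53 ZNF genes of chromosome 19 were then set against the 66 on other chromosomes. Those with a switch site averaged 1.98 sites on chromosome 19 (44 genes, median 1) and 2.78 on other chromosomes (58 genes, median 2). On chromosome 19, ZNF146 had the most with 11 sites, followed by ZNF431 with 7 and ZNF714 with 5. By distinct motifs these were 8, 5 and 4. An HCS site was present in 10 of the 44 (22.7%, interval 11.5% to 37.8%) on chromosome 19 and in 23 of the 58 (39.7%, interval 27.05% to 53.4%) on other chromosomes. Among genes with a single switch site it was 4 of 26 and 2 of 23, and among those with 2 sites 3 of 10 and 9 of 13.

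The HCS sites of chromosome 19 were seldom switch sites. Of its 22 ZNF HCS sites 3 were in the switch list (13.6%, interval 2.91% to 34.9%), namely those of ZNF430, ZNF714 and ZNF850, against 18 of 45 on other chromosomes (40%, interval 25.7% to 55.7%). The intervals overlap, and the difference was not tested. ZNF708, in the same cluster as ZNF430 and ZNF714, had 2 intronic HCS sites, neither of them a switch site. Of the genes with an HCS site, 9 of 19 on chromosome 19 (47.4%) and 8 of 31 on other chromosomes (25.8%) had no switch site under the symbol. The background, also counted by symbol, was 17.5%, and these differences were not tested. The 8 include ZNF512, whose 4 switch sites carry no symbol.

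Exonic sites were 2 of 22 on chromosome 19 (9.09%, interval 1.12% to 29.2%) and 8 of 45 on other chromosomes (17.8%, interval 8.002% to 32.1%). The motif was downstream in 18 of 22 (81.8%, interval 59.7% to 94.8%) and in 32 of 45 (71.1%, interval 55.7% to 83.6%). The background was 56.0% of all HCS sites, which the second interval includes. The median gap was 5.5 and 7 nt, against 11 nt over all HCS sites. Both groups are parts of the 67 sites in which these properties were picked out, so they give no separate check of them. The ZNF genes held 14.2% of the 614 switch sites of chromosome 19 and 21.4% of its 103 HCS sites.

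**Figure D4:**
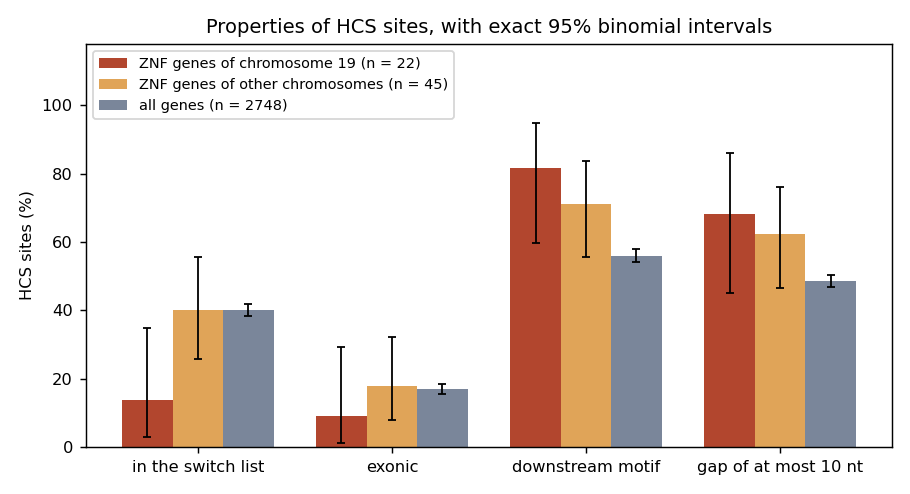
Share of HCS sites (vertical axis, percent) that were in the switch list, exonic, paired with a downstream motif or within 10 nt of their motif, for ZNF genes of chromosome 19, ZNF genes of other chromosomes and all genes, with exact binomial 95% intervals as error bars. The share in the switch list was 13.6% on chromosome 19, 40% in the other ZNF genes and 40.1% over all genes, and the share with a downstream motif was 81.8% and 71.1% in these ZNF groups and 56.0% over all genes.

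Along chromosome 19 the members fell into 4 blocks separated by more than 5 Mb without a member site. The blocks were drawn after the positions were seen. Each holds few HCS sites, so their overlap with the switch list is a description only, beside 40.1% of all HCS sites. The first, from ZNF554 to ZNF564 (2825585 to 12661683), held 11 genes with 8 switch sites and 6 HCS sites, and 0 of the 6 were in the switch list. The second, from ZNF430 to ZNF675 (21216687 to 23838159), held 9 genes with 28 switch sites and 6 HCS sites, and 2 of the 6 were in the switch list. This block is a dense cluster of KRAB genes and had the most switch sites for its number of genes.

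The third block, from ZNF507 to ZNF227 (32874097 to 44718709), held 14 genes with 25 switch sites, 11 of them in ZNF146, and 7 HCS sites, of which 3 were in ZNF850. Of the 7 HCS sites 1 was in the switch list. The fourth, from ZNF473 to ZNF8 (50543000 to 58804751), held 19 genes with 26 switch sites and 3 HCS sites, in ZNF444, ZNF583 and ZNF264. ZNF444 encodes a SCAN-domain protein. Here 18 of the 19 genes had a switch site and 3 had an HCS site, beside 4075 and 1815 of the 4393 genes of both lists. Every member has a site in at least 1 list by the rule, and the differences were not tested. None of the 3 HCS sites was in the switch list.

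Genes of related C2H2 families were also listed, and the sizes of these families were not used here. Of genes named ZBTB followed by a number, which mostly pair zinc fingers with a BTB domain, 7 had a switch site, 4 an HCS site and 2 both. The 7 include ZBTB8OS, which was matched by its symbol alone. ZFP genes had 4, 2 and 1, with ZFP91, a ubiquitin ligase, at 5 switch sites and 2 HCS sites, and ZSCAN genes 3, 0 and 0. Over all genes with a switch site, 36.7% also had an HCS site. No ZKSCAN gene was in either list. The ZFP symbols also include proteins of other finger types, such as the mRNA-decay factor ZFP36L1.

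The partners of KRAB proteins were looked up as a list of 28 symbols, in which FAM208A also stands under its newer name TASOR. Of these 18 had a switch site and 10 an HCS site. The 8 with both were 8 of 18 with a switch site, beside the background of 36.7% over all such genes, and the difference was not tested. TRIM28, the corepressor itself, had 0 sites, and SETDB1 had 1 switch site. EHMT1, a histone methyltransferase, had 19 switch sites and 4 HCS sites, and FAM208A, a subunit of the HUSH silencing complex, had 15 and 6. DNMT1, the maintenance DNA methyltransferase, had 14 switch sites and 3 HCS sites, and ATRX, a chromatin remodeller, had 7 and 5. Of these HCS sites 2 in EHMT1, 2 in FAM208A, 3 in DNMT1 and 2 in ATRX were switch sites, beside 40.1% of all HCS sites. The median over the 18 genes with a switch site was 3, against 2 over all genes.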

How the data were processed

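Reads of the PAR-CLIP samples were processed with Trimmomatic and Bowtie 1.0.0 on hg19, and the RNA-seq samples also carry the names TopHat 1.1.4, Cufflinks, Cuffdiff and DESeq, per the submitters' processing notes. The calling of sites, its thresholds and any pooling of replicates are not given in the sources used. Per the file headers, the deposited lists give positions, U-tract length and distance to the motif in nt, and the HCS list the region. They hold no count, signal or p-value.

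The 17352 switch and 2798 HCS entries were reduced to distinct U-tracts by chromosome, strand, start and end, and 3 chromosome Y copies of X sites were dropped. The gap is the number of bases between the facing edges, which is the listed distance for a downstream motif and the listed distance minus the 5 nt of the motif for an upstream one. This was checked on every entry. A site listed under several genes counted for each. Symbols are those of the lists. For 753 of 756 switch entries without one, the transcript matched a RefSeq table of GRCh38, used for names only, as an alternative. The hg19 sequence was not used here, so no site sequences are shown, and protein features were not analysed here.

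The members, lists and named-gene rules were chosen with earlier results of these data known. The rules name the 10 members with the most HCS and the most switch sites, those with an exonic HCS site, those with HCS sites alone, up to 5 with 8 or more switch sites that lack an HCS site, the longest U-tract, and up to 5 HCS tracts that overlap their motif. Genes named beyond these were chosen after their values were seen. Counting was tested on simulated sites. Computations ran in Python 3.11.15 with pandas 2.3.3, numpy 2.4.6, matplotlib 3.10.9 and, for intervals, scipy 1.17.1.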

Additional observations from a re-analysis of the deposited data

How the results depend on the processing

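Of 31 recomputed values, 27 stayed within 1.5 times or within the binomial interval of the reported one, and 4 moved further. Only the differences between chromosome 19 and other ZNF genes could change sign, and none did. With U-tracts of at least 6 nt, ZNF genes with such a switch site averaged 1.62 sites and 14.5% of them had such an HCS site. When an HCS site had to be a switch site too, 12.7% of ZNF genes with a switch site had one, and that share differed between chromosome 19 and other ZNF genes by -10.4 percentage points, against -16.9 from the reported shares. Both settings count fewer sites by construction. The share of ZNF HCS sites in the switch list was 28.6% without ZNF638 and 31.3% by shared base, by shared motif and within 100 nt. With missing symbols looked up, the ZNF genes with both kinds of site were 34 of 106. This alternative, and those for the downstream share, the median gap of HCS sites, the chromosome 19 share in the switch list and, without sites listed under several genes, the chromosome 19 difference in switch sites per gene, were added after the data were seen. No paired analysis was possible because the lists hold no values per sample, and for the same reason no replicate could be left out. Depth is unknown, so what it limits could not be measured.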
